A study of Homo sapiens with 11 samples.

Results

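The 10 genes described here are 3 Notch receptors (NOTCH1, NOTCH2, NOTCH3), 3 ligands (JAG1, JAG2, DLL1) and 4 transcriptional repressors of the HES/HEY family (HES1, HES4, HEY1, HEYL). They were taken by symbol from the 35303 genes of the count table, and all 10 passed the filter on low counts that left 16117 genes for testing. The RNA came from LX-2, a continuously growing human line derived from hepatic stellate cells, labelled as wild type and kept in DMEM with fetal bovine serum. One group received PBS, one received HIV-1BaL, a laboratory strain, at a multiplicity of infection of 0.1, and one received the same virus plus LTA (an agent the labels do not spell out) at 1 ug/ml. All 9 libraries, 3 in each of the 3 groups, were taken at 24 h, and the labels give a batch number equal to the replicate number, so each of the 3 batches holds 1 library of each group. There was no group with LTA alone among the samples used here. Everything comes from 1 cell line, and nothing in the labels says whether the replicates were separate cultures, so the p-values measure the spread between these libraries. The genes were chosen by their measured CPM in the 3 groups, compared within replicate number. Their differences between treatments are therefore given as a description, without a test.

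Notch receptors are single-pass membrane proteins that bind Jagged and Delta-like ligands on a neighbouring cell. Binding lets ADAM proteases and then gamma-secretase cut the receptor, and the freed intracellular domain enters the nucleus, where it joins the DNA-binding protein RBPJ and a Mastermind-like (MAML) coactivator. HES and HEY genes are the best-known direct targets, and their products repress transcription. In the liver, Jagged1 to Notch2 signalling patterns the bile ducts, and Notch activity has been studied in stellate cell activation and fibrosis.

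The libraries held between 50.6 and 90.6 M counts (M, 1e6). Of 10 stellate cell markers, 7 were above 1 CPM (counts per 1e6 counts, with TMM scaling between libraries) in the median library, COL1A1 at 794 to 1426 CPM and ACTA2 at 71.9 to 218 CPM, whereas DES, LRAT and HGF were near 0. None of 5 hepatocyte markers was above 1 CPM. Libraries of the same batch deviated together (correlations of their deviations from the group means from 0.705 to 0.917 over 9 pairs). Libraries of batches 1 and 2 did so with each other too (0.684 to 0.764), whereas batch 3 deviated the other way from both (-0.835 to -0.769). These values thus set batch 3 apart, and they do not separate batch 1 from batch 2. Batch, as the labels give it, was part of every main fit.

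The stretches upstream of the HES and HEYL genes are shown because the letters read by RBPJ, the DNA-binding partner of Notch, can be seen in them. Each is the 250 bases before the RefSeq start on GRCh38.p14, written 5′ to 3′ on the gene's strand, with matches to TGGGAA, the core of the RBPJ motif, or to its reverse complement TTCCCA in capitals. The HES1 stretch is chr3:194135898-194136147 (plus strand), that of HES4 is chr1:1000098-1000347 (minus strand) and that of HEYL is chr1:39639644-39639893 (minus strand).
HES1: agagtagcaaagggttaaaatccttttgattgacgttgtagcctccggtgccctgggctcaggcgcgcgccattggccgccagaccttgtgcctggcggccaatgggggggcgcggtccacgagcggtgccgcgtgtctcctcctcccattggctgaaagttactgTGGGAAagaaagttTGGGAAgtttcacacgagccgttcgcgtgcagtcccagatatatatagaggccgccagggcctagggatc
HES4: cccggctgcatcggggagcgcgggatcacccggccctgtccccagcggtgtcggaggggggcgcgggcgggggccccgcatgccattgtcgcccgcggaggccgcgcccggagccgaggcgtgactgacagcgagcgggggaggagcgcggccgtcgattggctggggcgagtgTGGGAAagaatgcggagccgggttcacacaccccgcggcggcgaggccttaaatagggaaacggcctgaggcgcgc
HEYL: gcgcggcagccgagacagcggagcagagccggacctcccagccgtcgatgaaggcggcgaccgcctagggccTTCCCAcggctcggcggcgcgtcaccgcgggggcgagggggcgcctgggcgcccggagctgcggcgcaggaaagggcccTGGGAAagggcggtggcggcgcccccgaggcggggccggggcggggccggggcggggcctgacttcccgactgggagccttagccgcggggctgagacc
In the HES1 stretch both matches lie in the same orientation, at -84 to -79 and -70 to -65 from the start. HES4 has 1 match, at -76 to -71, a position between those of the HES1 matches that overlaps neither. HEYL has 2, at -178 to -173 on the opposite strand and at -99 to -94. Of the 8 genes with a stretch scanned, these 3 held the motif, and the stretches of NOTCH1, NOTCH2, NOTCH3, JAG1 and JAG2 held no TGGGAA on either strand. Among 35116 promoter stretches of the same length, 20.8% held at least 1 match and 2.9% held 2 or more. HES1 also held 3 matches to CACNAG, the N box that HES proteins themselves bind, 1 of them on the opposite strand. NOTCH3 held 1, and 32.0% of all promoter stretches held at least 1. The motifs CACNAG and TGGGAA share no bases in these stretches. A match shows only that these letters are in the window. DLL1 and HEY1 were not scanned.

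NOTCH2 was the most abundant of the 10 transcripts by a wide margin. With counts divided by the length of the canonical transcript, NOTCH2 stood at 39.2 ± 10.8 CPM per kb in PBS (SD, n = 3). JAG1 followed at 5.50 ± 0.353 CPM per kb, HES1 at 2.53 ± 0.547 CPM per kb and NOTCH1 at 1.92 ± 0.132 CPM per kb. The ranges of these 4 genes in PBS did not overlap. HEYL (0.725 ± 0.0816 CPM per kb), HES4 (0.659 ± 0.154 CPM per kb) and NOTCH3 (0.620 ± 0.270 CPM per kb) came next, and the ranges of neighbours in this order overlapped. DLL1 (0.203 ± 0.0801 CPM per kb), HEY1 (0.183 ± 0.0846 CPM per kb) and JAG2 (0.175 ± 0.0268 CPM per kb) were lowest, again with overlapping ranges. NOTCH2 and JAG1 were thus the most abundant receptor and ligand transcripts per kb among the 10. The same 4 genes led in the same order in HIV-1 and HIV-1+LTA, but JAG1 and HES1 overlapped in HIV-1, and HES1 (2.08 ± 0.0686 CPM per kb) and NOTCH1 (2.07 ± 0.0849 CPM per kb) overlapped in HIV-1+LTA. With the union of all exons as the length, a choice made after the data were seen, the first 4 kept their order in each group and HEY1 became the lowest in each.

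**Figure D1:**
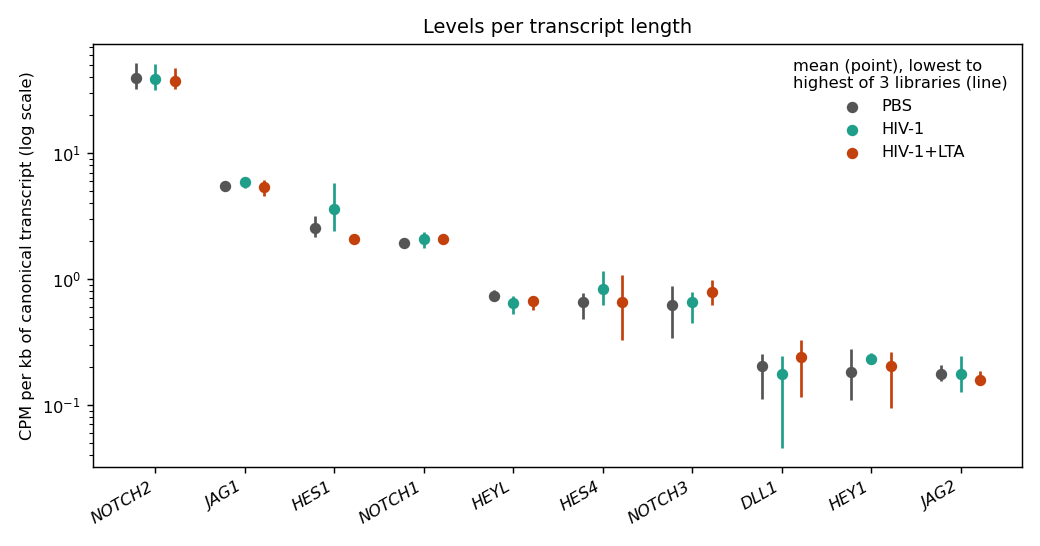
Level of each of the 10 genes in CPM per kb of canonical transcript on a log axis, by group, with points at the mean and lines from the lowest to the highest of 3 libraries. NOTCH2 lies above all others at 39.2 CPM per kb in PBS, and DLL1, HEY1 and JAG2 lie lowest.

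NOTCH2 (hg19 chr1:120454176-120643366, minus strand), the receptor best known for its role in bile duct formation, differed by batch and little by treatment. It was at 383, 370 and 591 CPM in PBS (batches 1, 2 and 3), at 384, 364 and 580 CPM in HIV-1, and at 378, 369 and 544 CPM in HIV-1+LTA. The library of batch 3 was the highest in each group, and the 3 groups overlapped. The fitted log2 difference was -0.02 (SE 0.0490) for HIV-1 against PBS and, with LTA added to the virus, -0.03 (SE 0.0491). Reads of NOTCH2 can be shared with its near-identical partial copies, of which NOTCH2NLC reached 3.62 CPM and NOTCH2NLA 0.969 CPM, so the split between them is uncertain.

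NOTCH1 (hg19 chr9:139388885-139440500, minus strand), the receptor first described in T cell leukaemia, was at 18.1, 19.8 and 17.3 CPM in PBS, 16.9, 22.4 and 19.8 CPM in HIV-1 and 19.4, 20.7 and 19.2 CPM in HIV-1+LTA. The groups overlapped, and the fitted log2 differences were 0.09 (SE 0.0750) for HIV-1 against PBS and, with LTA added to the virus, 0.01 (SE 0.0752). NOTCH3 (hg19 chr19:15269849-15311806, minus strand), the receptor of vascular smooth muscle and pericytes, was at 5.53, 7.64 and 2.96 CPM in PBS, 6.50, 6.79 and 3.87 CPM in HIV-1 and 6.77, 8.54 and 5.34 CPM in HIV-1+LTA. Within every batch HIV-1+LTA was the highest of the 3 libraries, although the groups overlapped. Its fitted log2 difference was 0.28 (SE 0.136) against HIV-1, and 0.14 without HIV-1+LTA replicate 3 or 0.19 without HIV-1 replicate 2. Against PBS it was 0.40 (SE 0.135), 0.26 without PBS replicate 3, 0.22 without batch 3 and up to 0.56 without PBS replicate 2. The authors' deposited table gives a log2 fold change of 0.40 (SE 0.153) for NOTCH3 in HIV-1+LTA against PBS, the comparison its values match.

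Among the ligands, JAG1 (hg19 chr20:10618332-10654647, minus strand), mutated in the bile duct disorder Alagille syndrome, was at 30.6, 34.8 and 32.6 CPM in PBS, 31.6, 37.5 and 36.2 CPM in HIV-1 and 32.5, 36.1 and 26.9 CPM in HIV-1+LTA. JAG1 was higher with HIV-1 than with PBS in 3 of 3 batches, with a fitted log2 difference of 0.10 (SE 0.0809). Against HIV-1, HIV-1+LTA differed on the log2 scale by 0.04, -0.05 and -0.43 in batches 1, 2 and 3, so the lower mean came from batch 3. DLL1 (hg19 chr6:170591294-170615653, minus strand), a Delta-like ligand, was at 0.961, 0.926 and 0.420 CPM in PBS, 0.911, 0.917 and 0.173 CPM in HIV-1 and 1.06, 1.23 and 0.433 CPM in HIV-1+LTA. DLL1 was higher with HIV-1+LTA than with HIV-1 in 3 of 3 batches, by 0.21, 0.41 and 1.19 on the log2 scale, and the groups overlapped. The lowest library, HIV-1 replicate 3, held 10 counts, whose exact 95% Poisson interval runs from 0.0830 to 0.318 CPM and covers counting error only. The interval of HIV-1+LTA replicate 3, with 21 counts, runs from 0.268 to 0.662 CPM. JAG2 (hg19 chr14:105607319-105635161, minus strand), the second Jagged ligand, ranged from 0.727 to 1.42 CPM over the 9 libraries, with both ends in HIV-1. Exons of DLL1 share 370 bases with FAM120B on the opposite strand, those of JAG1 share 306 bases with a long noncoding RNA on the opposite strand, and those of JAG2 share 469 bases with one on the same strand. The strand setting of the counting is not given in the sources used here, so reads of these genes and their partners cannot be told apart there.

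HES1 (hg19 chr3:193853937-193856521, plus strand), the main effector of Notch in many tissues, was the gene of the 10 whose groups separated. It was at 3.41, 3.58 and 4.98 CPM in PBS, 3.80, 4.23 and 9.06 CPM in HIV-1 and 3.15, 3.37 and 3.30 CPM in HIV-1+LTA. With TMM scaling all 3 HIV-1+LTA libraries lay below every PBS and every HIV-1 library, while PBS and HIV-1 overlapped. With library totals, HIV-1+LTA replicate 2 (3.626 CPM) lay above PBS replicates 1 and 2 (3.521 and 3.625 CPM). The separation from PBS thus depended on the scaling, whereas all HIV-1+LTA libraries stayed below the lowest HIV-1 library (3.93 CPM with library totals). HIV-1 replicate 3 was the highest of the 9, with 524 counts. Within batches 1, 2 and 3 the log2 difference was 0.16, 0.24 and 0.86 between HIV-1 and PBS, -0.27, -0.33 and -1.45 between HIV-1+LTA and HIV-1, and -0.11, -0.09 and -0.59 between HIV-1+LTA and PBS. With TMM scaling the direction was the same in each batch and the size was largest in batch 3 in each comparison. The fitted log2 difference of HES1 was 0.46 (SE 0.192) for HIV-1 against PBS, and it was 0.12 without HIV-1 replicate 3. Between HIV-1+LTA and HIV-1 it was -0.70 (SE 0.197), -0.38 without HIV-1 replicate 3, -0.42 without HIV-1+LTA replicate 3 and -0.30 without batch 3. Between HIV-1+LTA and PBS it was -0.24 (SE 0.196), and 0.0085 without HIV-1+LTA replicate 3.

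HES4, the HES gene that mice lack, was at 0.427, 0.642 and 0.680 CPM in PBS, 0.630, 1.02 and 0.554 CPM in HIV-1 and 0.506, 0.944 and 0.289 CPM in HIV-1+LTA. It lies at hg19 chr1:934342-935552 on the minus strand. HES4 was lower with HIV-1+LTA than with HIV-1 in 3 of 3 batches, by -0.30, -0.10 and -0.87 on the log2 scale, with overlapping groups and 14 to 67 counts per library. HEY1, a HEY repressor known for its role in vessel formation, ranged from 0.206 to 0.605 CPM with 10 to 49 counts. In batch 3 HEY1 was at 0.240 CPM in PBS, 0.571 CPM in HIV-1 and 0.206 CPM in HIV-1+LTA, the same order as HES1 in that batch. In batch 2 HEY1 was lowest in HIV-1, at 0.467 CPM. HEYL (hg19 chr1:40089107-40105315, minus strand), known from vascular smooth muscle, was at 2.71, 3.33 and 2.82 CPM in PBS, 2.99, 2.70 and 2.16 CPM in HIV-1 and 2.93, 2.89 and 2.31 CPM in HIV-1+LTA. The HEYL groups overlapped, with no direction shared by all batches for HIV-1 against PBS.

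**Figure D2:**
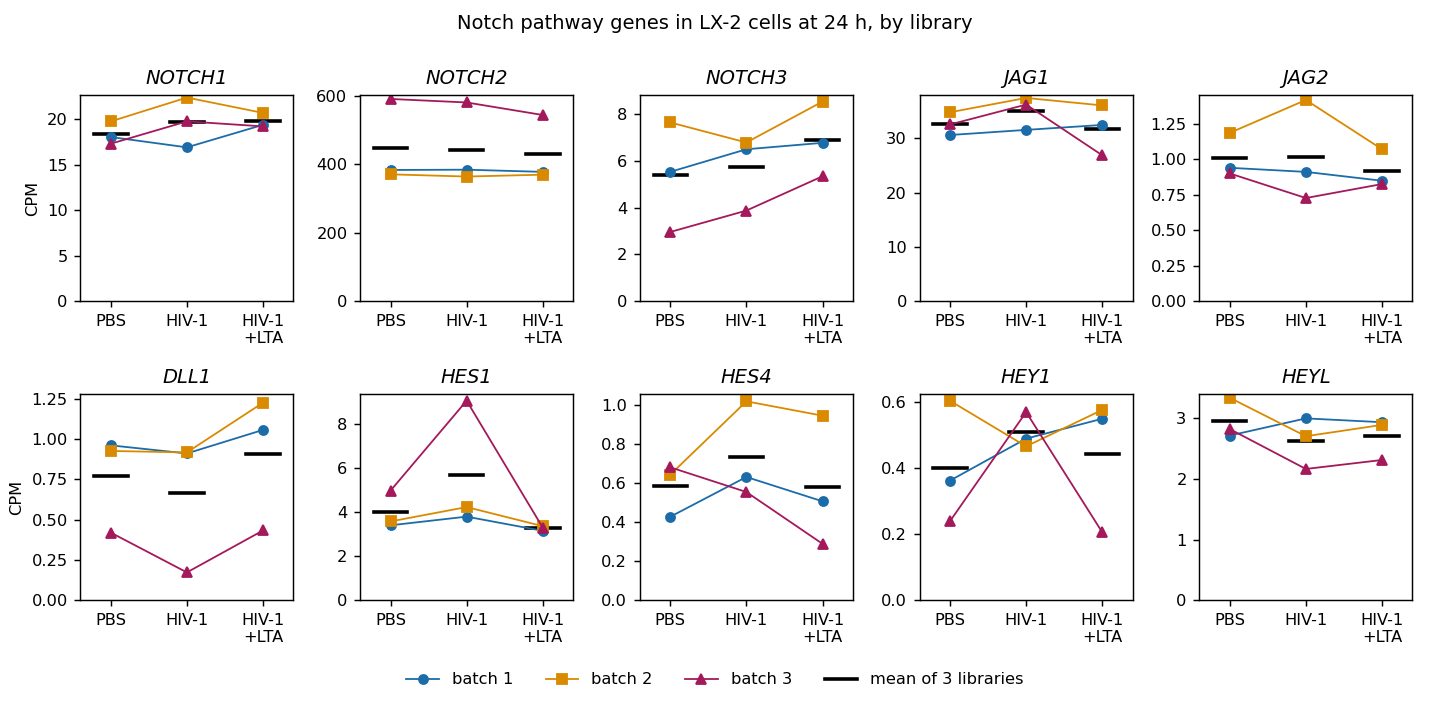
CPM of each of the 10 genes in the 9 libraries, 1 panel per gene, with 1 line per batch and a black bar at each group's mean. HES1 in HIV-1+LTA sits between 3.15 and 3.37 CPM, below all libraries of the other groups with TMM scaling. NOTCH2 is highest in batch 3 of each group.

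For HIV-1 against PBS, JAG1 and HES1 were higher in 3 of 3 batches, DLL1 was lower in 3 of 3, and the other 7 genes were mixed. With LTA added to the virus, NOTCH3 and DLL1 were higher and HES1 and HES4 lower than with HIV-1 in 3 of 3. Compared with PBS, HIV-1+LTA had NOTCH1, NOTCH3 and DLL1 higher and NOTCH2, JAG2 and HES1 lower in 3 of 3. These directions are with TMM scaling. With library totals, batch 2 turned for NOTCH2 (374.9 CPM in PBS, 397.9 CPM in HIV-1+LTA) and HES1 (3.625 and 3.626 CPM). For HIV-1 against PBS, DLL1 turned in batch 2 (0.9374 CPM in PBS, 0.9497 CPM in HIV-1), and NOTCH2 became higher in 3 of 3. In batch 2 with TMM scaling, the log2 difference was -0.0038 for NOTCH2 (HIV-1+LTA against PBS) and -0.014 for DLL1 (HIV-1 against PBS). The other directions named were kept. Of all genes tested, 33.2%, 33.8% and 33.8% kept one direction in 3 of 3 batches in these comparisons, of which 16.3%, 16.7% and 17.5% of all genes were higher and 16.9%, 17.1% and 16.3% lower. HES1 was the 1 gene of the 10 whose groups did not overlap between HIV-1+LTA and HIV-1, where 4.37% of all genes tested did not overlap in either direction and 2.26% were lower. With TMM scaling it was also the 1 gene of the 10 for HIV-1+LTA against PBS (3.82% and 1.76%), but with library totals those groups overlapped. There was none for HIV-1 against PBS (2.74%, of which 1.19% lower). By edgeR's quasi-likelihood test with batch, 0 of 16117 genes passed an adjusted p of 0.05 in any of the 3 comparisons (0%), with 678, 2486 and 2709 genes at an unadjusted p under 0.05. DESeq2 with batch called 3 genes (0.015%), 244 (1.82%) and 236 (1.93%). The 10 genes were chosen on these contrasts, so no p-value of them is given or read here. The SEs printed beside their differences come from the same fits and are not to be read as a test. The comparisons share libraries. The median log2 difference of the 10 genes was 0.10, -0.08 and -0.03, beside -0.0015, -0.0038 and 0.0016 over all genes tested.

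**Figure D3:**
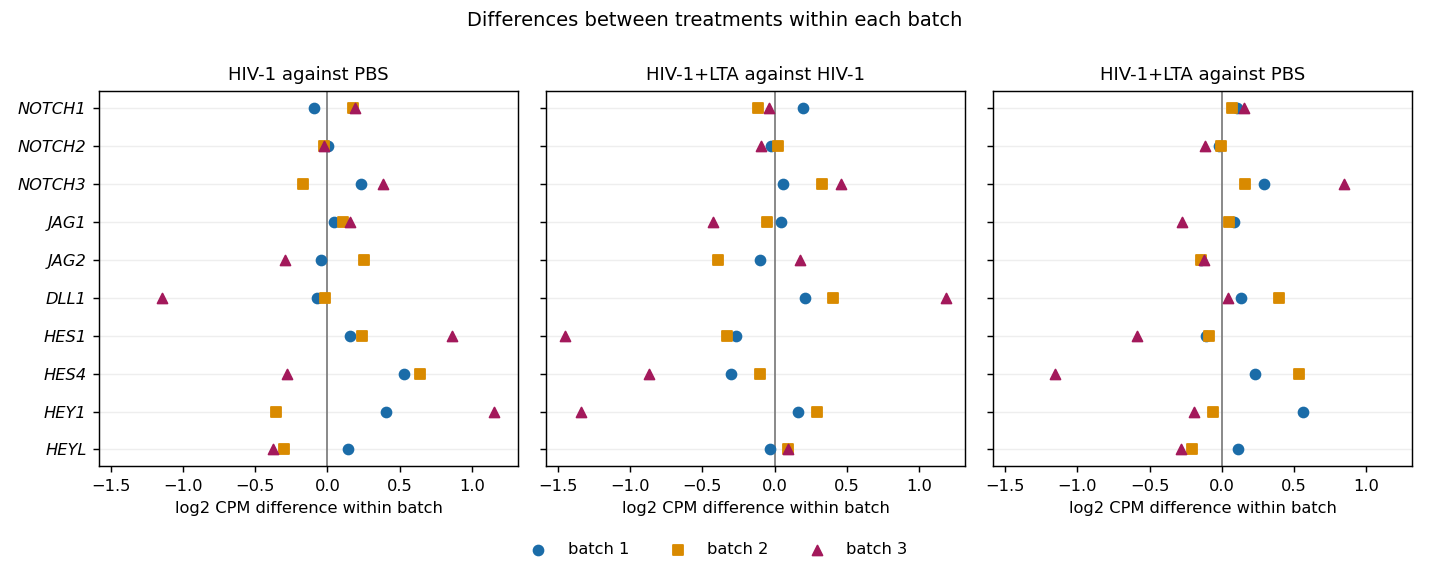
Log2 difference of CPM within each batch for the 10 genes, 1 panel per comparison, with 1 point per batch. HES1 is lower with HIV-1+LTA than with HIV-1 in each batch, by -0.27, -0.33 and -1.45, and DLL1 is higher by 0.21, 0.41 and 1.19.

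Across the 9 libraries, with each batch's mean taken off, the gene whose log2 CPM was most like HES1 was SYNE1, which encodes the nuclear envelope protein nesprin-1 (Pearson r = 0.994 among the 8262 genes averaging 10 CPM or more). IGF2R (r = 0.982), MAPKAPK5 (0.980), ZNF274 (0.976) and KMT2D (0.976) followed. The lowest were LZTFL1 (r = -0.997), ANKRD44 (-0.985) and DHX40 (-0.980). Without HIV-1 replicate 3, a choice made after the data were seen, SYNE1 was at r = 0.973 and LZTFL1 at r = -0.987 over 8 libraries. For JAG1 the highest among 8261 genes were KLF10 (r = 0.984), COPS7A (0.975), ETS2 (0.970), SLC41A1 (0.967) and IER2 (0.962), and the lowest was GGPS1 (-0.976). Within the 10 genes, JAG1 and HES1 had r = 0.906, and 0.798 without HIV-1 replicate 3. The r of HES1 with HEY1 was 0.773, but -0.06 without that library. The r of HES1 with NOTCH3 was -0.461, and -0.878 without that library. These are descriptions of libraries that share depth and batch, ranked from many genes.

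Of 67 other genes of the Notch pathway listed by role, 60 passed the filter on low counts. None of the 60 changed by edgeR's quasi-likelihood test in the 3 treatment comparisons. There 6, 10 and 12 of the 60 had an unadjusted p under 0.05, beside 678, 2486 and 2709 of all 16117 genes tested. These counts are not read as a trait of the pathway. The pathway's core was abundant, with RBPJ at 308 ± 12.0 CPM in PBS, 294 ± 17.5 CPM in HIV-1 and 292 ± 19.7 CPM in HIV-1+LTA (SD, n = 3 each). MAML3, a Mastermind-like coactivator of the Notch complex, was at 2.84, 2.95 and 3.18 CPM in PBS, 2.78, 2.67 and 3.08 CPM in HIV-1 and 3.59, 5.17 and 4.29 CPM in HIV-1+LTA. Its HIV-1+LTA libraries lay above all other libraries. Of all genes tested, 4.37% did not overlap between HIV-1+LTA and HIV-1 in either direction, and 3.82% between HIV-1+LTA and PBS. The log2 difference of MAML3 against HIV-1 was 0.61 (SE 0.145), with an adjusted p of 0.171 in edgeR, and MAML3 was called at an adjusted p of 0.0437 in DESeq2. DTX3L, an E3 ubiquitin ligase of the Deltex family that is also interferon-inducible, was at 92.6, 69.0 and 54.5 CPM in PBS, 83.7, 72.0 and 55.1 CPM in HIV-1 and 91.6, 107 and 71.2 CPM in HIV-1+LTA. The groups of DTX3L overlapped, and it was higher with HIV-1+LTA than with HIV-1 in 3 of 3 batches. Its log2 difference against HIV-1 was 0.37 (SE 0.0935), with an adjusted p of 0.171 in edgeR and 0.0133 in DESeq2. MAML3 and DTX3L were the 2 of 60 that DESeq2 called between HIV-1+LTA and HIV-1, beside 1.82% of all genes. Against PBS it called DTX3L alone in HIV-1+LTA (adjusted p 0.0405), and for HIV-1 against PBS none. Over 20 alternatives, MAML3 and DTX3L each passed in 4 between HIV-1+LTA and HIV-1.

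No role had a call in HIV-1 against PBS, where 33 of the 60 other pathway genes lay above 0 and 27 below. Of the genes with the lowest p in their role, only some are printed. Among other receptors and ligands, DLL4, a Delta-like ligand of endothelium, had a log2 difference of 0.71 (SE 0.278). Of other targets, BHLHE40, a circadian repressor of the same protein family, had 0.30 (SE 0.105) and BHLHE41 had 0.56 (SE 0.219). LFNG, a Fringe glycosyltransferase that modifies Notch, had 0.33 (SE 0.134). For these 4 genes the adjusted p in edgeR was 0.946. All 4 were higher with HIV-1, and the difference of BHLHE41 was largest in batch 3 (0.02, 0.16 and 1.49 in batches 1, 2 and 3). Other genes named by the same rule went the other way. NOTCH2NLB, ADAM10, POFUT1 and MIB1 were lower with HIV-1 than with PBS in 3 of 3 batches. In HIV-1+LTA against PBS, HES6 (0.48, SE 0.154, adjusted p 0.207) had the lowest p of its role and did not pass in edgeR. TLE2, a Groucho-type corepressor (0.49, SE 0.176, adjusted p 0.224), came after TLE3 in its role, and neither passed in edgeR.

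Batch 3 against batches 1 and 2 is a contrast that the choice of the 10 genes did not use, and 4 of them changed in it. Batch 3 is a single batch, which already stood apart in these same data. The spread comes from libraries of different treatments within a batch, so the p-values of this contrast do not measure the spread between batches. NOTCH2 rose, with batch means of 382 ± 3.46, 368 ± 3.47 and 571 ± 24.7 CPM (SD, n = 3 each), a log2 difference of 0.61 (SE 0.0416, adjusted p 8.34e-08, edgeR's quasi-likelihood test). NOTCH3 fell, with batch means of 6.27 ± 0.652, 7.66 ± 0.875 and 4.06 ± 1.20 CPM and a log2 difference of -0.79 (SE 0.124, adjusted p 0.000108). DLL1 fell furthest, from 0.976 ± 0.0742 and 1.02 ± 0.175 CPM in batches 1 and 2 to 0.342 ± 0.147 CPM in batch 3, a log2 difference of -1.57 (SE 0.267, adjusted p 0.000206). For these 3 genes no library of batch 3 overlapped those of batches 1 and 2. The share of all genes without such an overlap was not computed, so it cannot be told whether this is particular to them. HES1 had a log2 difference of 0.62 (SE 0.167, adjusted p 0.00561), but its batches overlapped and without HIV-1 replicate 3 the difference was 0.28 with an adjusted p of 0.129. The other 6 genes did not pass with TMM scaling, with log2 differences from -0.60 (HEY1, SE 0.352) to -0.06 (NOTCH1, SE 0.0656). Of all genes tested, 71.2% passed in this contrast, 35.2% higher and 36% lower. With library totals in place of TMM scaling the median of all genes moved from -0.01 to -0.17, and 72.2% passed, 4264 genes higher and 7367 lower. NOTCH1, JAG1, JAG2 and HEYL then passed as lower too, so that 8 of 10 genes passed, 2 higher and 6 lower. The share of the 10 that passed is thus below or above that of all genes by the scaling. NOTCH1 and JAG1 also passed as lower without batch 1 (adjusted p 0.0466 and 0.0401 in edgeR). Over 16 alternatives, HEY1 and HES4 passed as lower in 1 each, and HEYL in 2, library totals included.

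**Figure D4:**
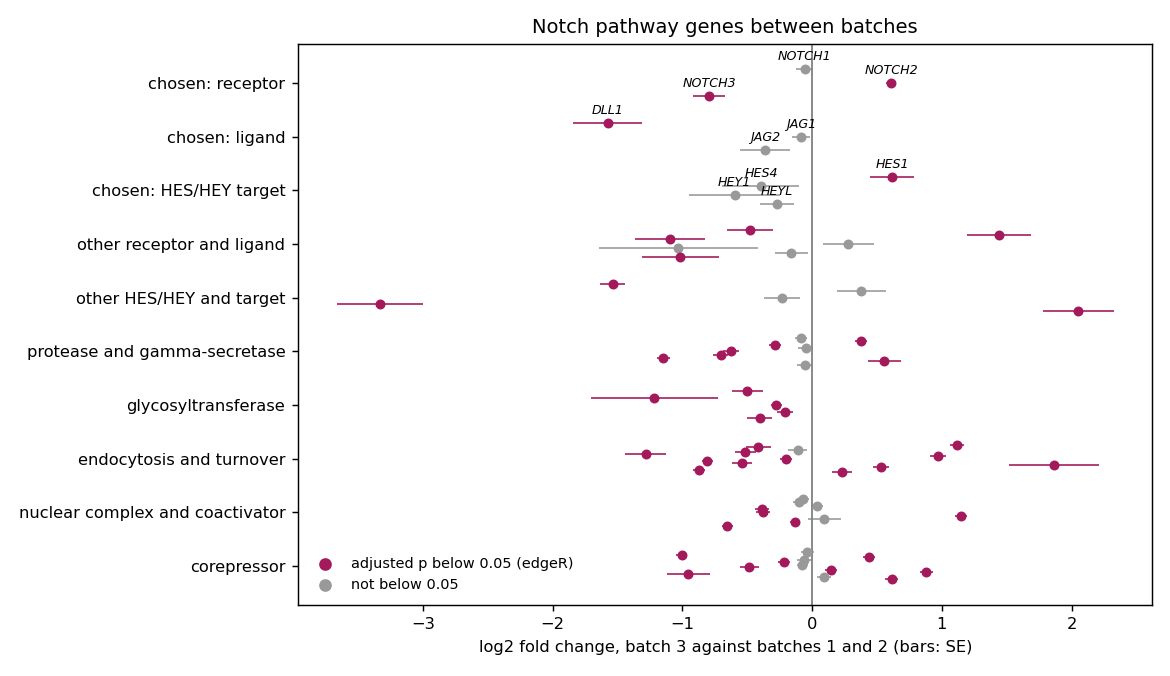
Log2 difference between batch 3 and the mean of batches 1 and 2 for the 10 genes and the other Notch pathway genes by role, with standard errors as bars and genes past an adjusted p of 0.05 in edgeR in colour. NOTCH2 (0.61) and HES1 (0.62) lie above 0 and DLL1 (-1.57) lies lowest of the 10.

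Of the 60 other pathway genes, 14 were higher and 29 lower in batch 3, 71.7% in all, beside 71.2% of all genes. With library totals 12 were higher and 40 lower (86.7%, beside 72.2%). All 5 glycosyltransferases tested were lower in edgeR, among them POFUT1 (-0.27), LFNG (-0.50) and RFNG (-0.41), and 4 of 5 were lower in DESeq2, which called 56.8% of all genes. RFNG did not pass without batch 2 (adjusted p 0.0628 in edgeR), nor POGLUT1 without HIV-1+LTA replicate 3 (0.0880). Of the proteases and gamma-secretase subunits, NCSTN was lower by -0.70 (SE 0.0591) and FURIN, which cleaves the precursor, by -0.62 (SE 0.0616), whereas ADAM17 was higher by 0.38 (SE 0.0461). In the nuclear complex MAML2 was higher by 1.15 (SE 0.0443) and MAML1 lower by -0.38 (SE 0.0529). Of other targets NRARP, a feedback inhibitor of Notch, was higher by 2.05 (SE 0.273), and HES7, the segmentation clock gene, lower by -3.33 (SE 0.332). Both were at low levels, NRARP up to 1.11 CPM and HES7 up to 1.79 CPM in any library. The Notch regulator NUMB was lower by -0.87 (SE 0.046) and AAK1, a kinase of endocytosis, higher by 1.12 (SE 0.0528). Of the 5 marker lists, 3 had sums in batch 3 apart from those in batches 1 and 2. The stellate list summed to 2443 to 3180 CPM in batches 1 and 2 and 4316 to 4667 CPM in batch 3. VIM alone was at 539 to 792 CPM in batches 1 and 2 and at 2450 to 3127 CPM in batch 3, and the other 9 stellate markers summed to 1739 to 2403 CPM in batches 1 and 2 and to 1530 to 1865 CPM in batch 3. The endothelial list, 1 of 5 genes above 1 CPM, summed to 8.76 to 10.9 CPM and 3.30 to 4.45 CPM, with TEK alone at 2.44 to 9.32 CPM over the 9 libraries. The macrophage and T cell list, 2 of 5 genes above 1 CPM, summed to 14.0 to 19.96 CPM and 2.68 to 4.06 CPM, with CD163 and CD3E near 0 and CD4 alone at 1.36 to 18.2 CPM over the 9 libraries. The cholangiocyte list (26.8 to 28.9, 23.3 to 36.1 and 33.7 to 38.7 CPM in batches 1, 2 and 3) and the hepatocyte list (at most 0.437 CPM) overlapped between batches. The part of these in the batch differences was not tested. In bulk RNA, fewer cells of a kind and less RNA per cell cannot be told apart.

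The deposited peak list of the HIV-1 chromatin immunoprecipitation held 166 peaks on hg19, with a median width of 226 bases. None lay within 100 kb of the start of any of the 10 genes, and the nearest were 1.34 Mb from NOTCH3 and 58.2 Mb from HEY1 at the 2 ends of the range. The antibody and control are not given in the sources used here.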

How the data were processed

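RNA-seq was done on 9 LX-2 libraries, 3 per group, with 50.6 to 90.6 M counts each (M, 1e6). Raw counts per gene were deposited by the authors, who aligned with STAR and counted with HTSeq on hg19 according to the series' design text. The submitters' processing notes name fastp and SAMtools too. The authors' deposited table of 1 comparison holds mean normalised signal, log2 fold changes with standard errors, a Wald score, and p-values with adjusted p-values, from DESeq2 according to the design text. Its comparison is not named, and its log2 fold changes lie within 0.01 of a DESeq2 fit of HIV-1+LTA against PBS with batch for 19990 of 19990 genes. Peaks were called with MACS, according to the design text, and deposited as positions only.

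Counts were fitted with edgeR 4.0.16 (R 4.3.3; quasi-likelihood, TMM scaling, filterByExpr, group and batch, Benjamini-Hochberg over 16117 genes, adjusted p under 0.05). DESeq2 1.42.0 (genes with a total of at least 10 counts) and limma 3.58.1 were alternatives. In edgeR the SE is the absolute log2 difference divided by the square root of the quasi-likelihood F. Log2 CPM for correlations used a prior count of 2. Same-numbered libraries correlated at 0.705 to 0.917 and others at -0.835 to 0.764. No 2 libraries agreed within counting noise (chi-square over degrees of freedom at least 3.80). The edgeR and DESeq2 fits with batch were tried on simulated data for the treatment comparisons. The batch contrast, limma and the fits without batch were not. The 10 genes and all lists were chosen with earlier results of these data known. Other pathway genes are named where they passed in edgeR or DESeq2, at most 4 per role, and otherwise up to 2 per role by p, of which only some are printed. Likeness names the 5 highest and 3 lowest. Gene lengths come from GENCODE on hg19 and promoters from RefSeq.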

Additional observations from a re-analysis of the deposited data

How the results depend on the processing

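For HIV-1 against PBS the count of 0 became 3 in DESeq2 with batch, 1 in DESeq2 without it, 30 without the filter on low counts and 2 with only the 6 libraries compared, and ranged from 0 to 4 when a library or batch was left out. For HIV-1+LTA against HIV-1 the count of 0 became 244 in DESeq2 with batch, 1 without it and 1016 without the filter. Leaving out a library or batch gave 0 to 2393, with 2393 without HIV-1+LTA replicate 1 and 1598 without batch 1. For HIV-1+LTA against PBS the count of 0 became 236 in DESeq2 with batch and 1045 without the filter. Leaving out a library or batch gave 0 to 2665, with 2665 without HIV-1+LTA replicate 1, 1746 without batch 1 and 81 without PBS replicate 1. The causes were not tested. In edgeR without the replicate block the counts were 0, 0 and 0, with 42, 153 and 141 genes at an unadjusted p under 0.05. The 11478 calls of the batch contrast ranged from 10243 to 11689 over the left-out libraries and batches.

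With the sign turned, HES1 for HIV-1+LTA against PBS was 0.0085 without HIV-1+LTA replicate 3, and NOTCH3 for HIV-1 against PBS was -0.013 without PBS replicate 3. HES1 for HIV-1+LTA against HIV-1 ranged from -0.90 to -0.30 on the log2 scale over 20 alternatives. For batch 3 the log2 difference of NOTCH1 was -0.16 without batch 1 and 0.031 without batch 2, and that of JAG1 was -0.19 without batch 1 and 0.036 without HIV-1+LTA replicate 3 when libraries or batches were left out. With library totals they were -0.22 and -0.25, which passed (adjusted p 0.0137 and 0.0072 in edgeR), as did the values without batch 1 (0.0466 and 0.0401), and the values with TMM scaling over all libraries did not. The correlation of HES1 with HEY1 turned to -0.057 without HIV-1 replicate 3. JAG2, DLL1, HES4 and HEY1, with as few as 10 counts in a library, are limited by counting error.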
